A study of Mus musculus with 3 samples.

Results

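The extracellular matrix of the meninges was followed here through 50 genes of the 27998 in the count matrices. The genes were picked by symbol, and each symbol was found in the files. They fall into 9 roles: 5 fibrillar collagens, 4 other interstitial collagens, 9 basement membrane genes, 6 small leucine-rich proteoglycans, 8 elastic fibre and microfibril genes, 3 collagen processing and cross-linking genes, 4 matricellular and mineral-binding genes, 5 insulin-like growth factor (IGF)-binding proteins, and 6 proteases and protease inhibitors. Each of the 50 genes had at least 1 unique molecular identifier (UMI, the tag that marks a captured transcript) in each library. Counts per gene ran from 12 UMIs for *Col18a1*, a basement membrane collagen, to 22551 UMIs for *Mgp*, which encodes a protein that binds mineral and holds back calcification.

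The pia, arachnoid and dura that wrap the brain are sheets of fibroblasts in a dense collagen matrix. Fibrillar collagens carry the load of the tissue, small leucine-rich proteoglycans set the thickness and spacing of collagen fibrils, and microfibrils and elastin give recoil. Basement membrane collagens and laminins line vessels and the brain surface, while matricellular proteins, IGF-binding proteins and protease inhibitors sit in the matrix and tune growth signals and its turnover.

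Meninges of C57BL/6J male mice aged 10 to 12 weeks were pooled from 4 mice per library, and live nucleated single cells were sorted after collagenase digestion and encapsulated on the 10x Chromium 3′ v2 platform. Replicates 1 and 2 of the HC group were unstressed mice kept in their home cage. Replicate 1 of the CSD group was taken after 14 days of chronic social defeat stress, from mice selected as stress-susceptible by behavioral tests. The pools went into lanes 1, 2 and 3 of the same chip, and the labels name no transgene or drug in either group. The tissue held the membranes of the brain surface together with those attached to the skull. With only 1 CSD pool, an effect of stress and a difference between pools cannot be told apart. The p-values below assume that the CSD pool varies as the HC pools do. The test draws each gene's spread toward that of all genes. A p-value thus does not measure the spread between HC pools for that gene alone.

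Library totals ran from 8814690 to 10206236 UMIs, and 1702 to 2756 barcodes per library were kept as cells, with median depths of 2212 to 2503 UMIs. Barcodes of at most 100 UMIs were summed per library as free RNA, the RNA outside cells. Free RNA held 7.87% of all UMIs in the first HC pool, 24.1% in the second and 5.48% in the CSD pool, so HC replicate 2 stood apart. Pairs of libraries shared 8, 6 and 3 kept barcodes. The 6844 cells left after removal of marked doublets were clustered without the 50 genes and without 77 other matrix genes, and 15 cell types were named from markers. Levels are given as CPM, the UMIs of a gene or list per 1000000 UMIs of that cell type and library. Where 3 values stand together below, they follow the order first HC pool, second HC pool, CSD pool. A 3′ kit tags each transcript at its end, so CPM compares genes without a correction for length.

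Matrix transcripts were concentrated in fibroblast-like cells. The 50 genes together reached 39279, 39351 and 45337 CPM in these cells. Their summed level in free RNA was 4652, 3569 and 1546 CPM. The fibroblast-like level was thus 8.44, 11.03 and 29.3 times that of free RNA. Fibroblast-like cells gave 5.28%, 5.90% and 0.831% of the UMIs of all typed cells, yet 64.1%, 67.4% and 51.8% of the UMIs of the 50 genes.

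**Figure D1:**
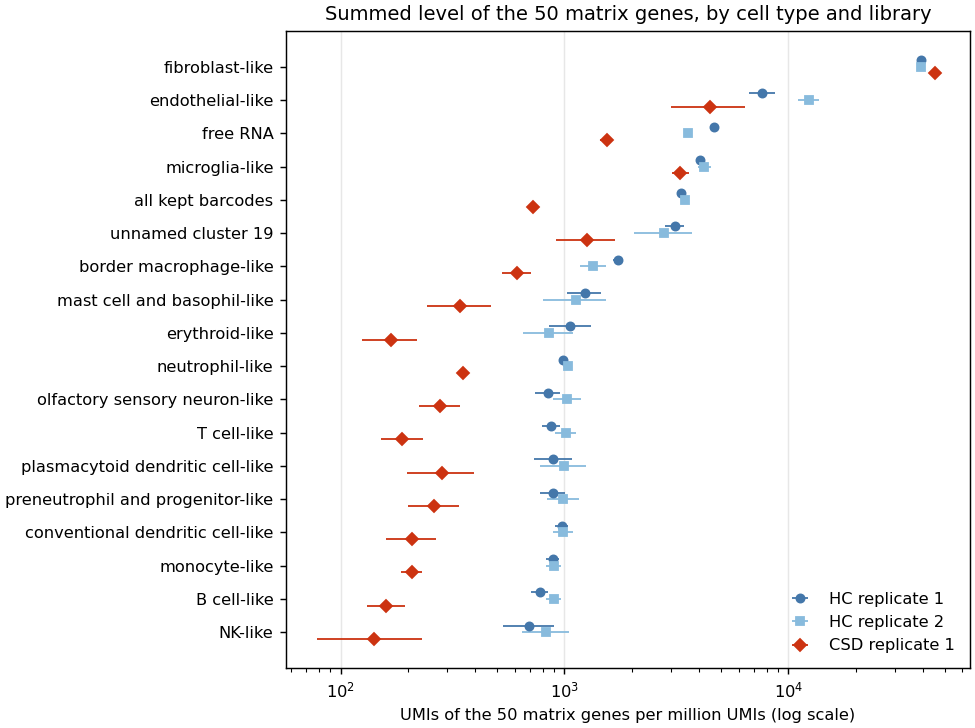
Summed level of the 50 matrix genes (CPM, log axis) in each cell type, in free RNA and in all kept barcodes, with 1 symbol per library and bars for the 95% exact Poisson interval, which covers counting error only. Fibroblast-like cells lie at 39279 to 45337 CPM in every library, and in the 13 named types other than fibroblast-like and endothelial-like cells the CSD symbol lies to the left of both HC symbols.

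Fibroblast-like cells numbered 127, 90 and 24, which was 4.98%, 5.37% and 0.918% of typed cells. The label came from 16 fibroblast markers that are not among the 50 genes, so the markers are no separate check of it. Of these, 11 passed the detection bar of 10% of cells, and 0 were among the 10 leading genes of the cluster. Its marker score was 4.10 for fibroblasts and 3.89 for osteoblasts and chondrocytes, the next list. At least 1 UMI was found for 16 of 16, but also for 10 of 10 endothelial and 11 of 11 B cell markers. *Pdgfra*, the platelet-derived growth factor receptor of fibroblasts, stood at 62.9, 39.6 and 53.9 CPM. *Apod*, a lipid carrier made by fibroblasts, stood at 2968, 1168 and 12366 CPM, well above both HC libraries in the CSD library. Markers of other lineages were present too: 8 of 8 osteoblast and chondrocyte markers summed to 509, 508 and 162 CPM, and 11 of 11 neutrophil markers to 30606, 29912 and 35358 CPM. After thinning each cell to 500 UMIs, the median fibroblast-like cell carried 17 UMIs of the 50 genes in each of the 3 libraries. At least 5 such UMIs were found in 94.5%, 92.2% and 87.5% of the fibroblast-like cells. Among microglia-like cells the same share was 4.42%, 4.35% and 4.49%, and among T cell-like cells it was 0 of 216, 0 of 134 and 0 of 209 cells.

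Gene by gene, 38 of the 50 genes had their highest level in fibroblast-like cells, 8 in endothelial-like cells and 4 elsewhere, each level being the mean of the 3 libraries. The share of a gene's UMIs, among all typed cells, that lay in fibroblast-like cells had a median of 69.9% over the 50 genes. It ran from 17.8% for *Timp2*, a tissue inhibitor of metalloproteinases, to 86.5% for *Efemp1*, the microfibril-associated fibulin 3. For 9 genes it was above 80% and for 11 genes below 50%. The clusters are defined by expression, so these shares describe the cells and were not tested.

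**Figure D2:**
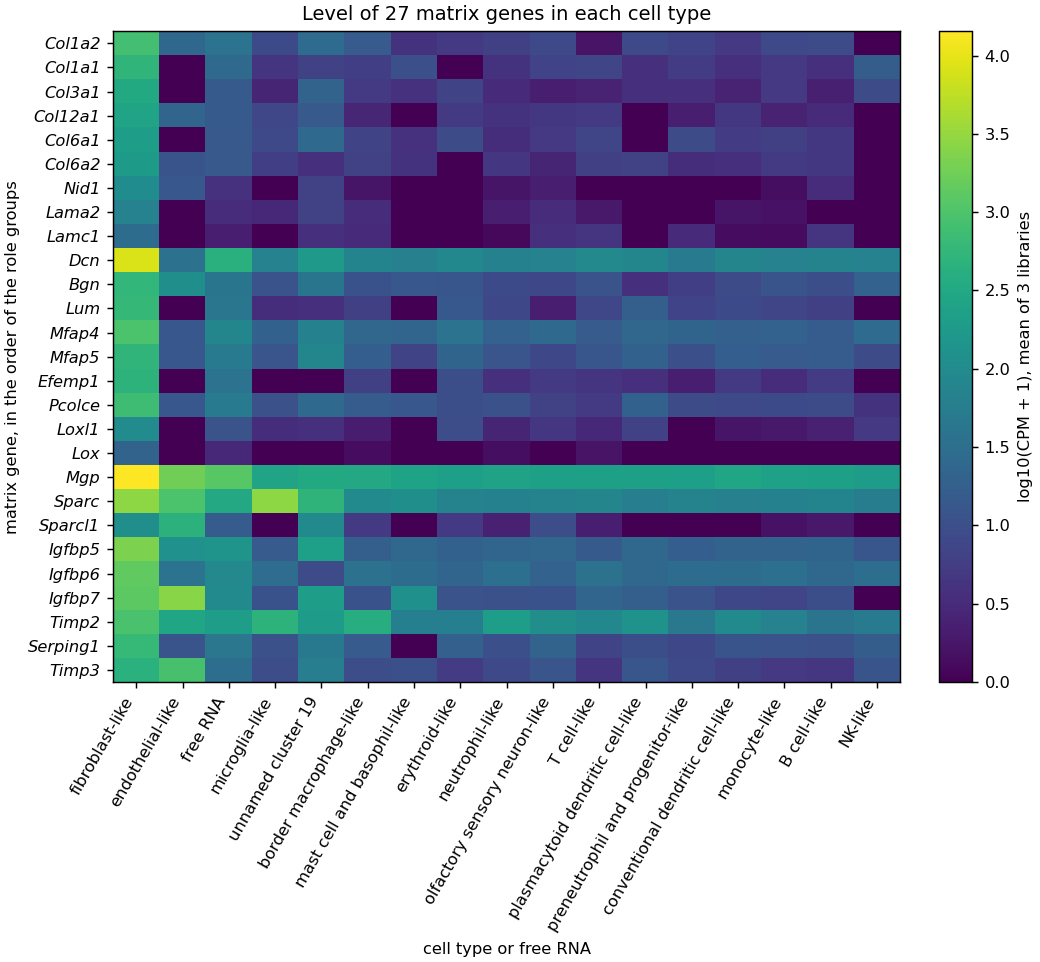
Level of 27 matrix genes, the 3 with most UMIs in each of the 9 roles, in each cell type and in free RNA, as log10 of CPM plus 1 averaged over 3 libraries. The fibroblast-like column is the brightest for most genes, *Sparc* is as bright in microglia-like cells, *Igfbp7*, *Timp3* and *Sparcl1* are brightest in endothelial-like cells, and *Timp2* exceeds its free RNA level in microglia-like and border macrophage-like cells too.

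Promoters of 4 genes are shown because each stands for a different pattern of levels: *Col1a2* for fibroblast-like cells, *Igfbp7* for endothelial-like and fibroblast-like cells, *Sparc* for microglia-like and fibroblast-like cells, and *Timp2* for fibroblast-like, microglia-like and border macrophage-like cells. Each run spans 250 bases before to 50 after the start given by RefSeq, 5′ to 3′ on the gene's strand, on GRCm38.p6: chr6:4505368-4505667 on the plus strand for *Col1a2*, chr5:77407996-77408295 on the minus strand for *Igfbp7*, chr11:55420031-55420330 on the minus strand for *Sparc* and chr11:118355362-118355661 on the minus strand for *Timp2*. Capitals mark a GC box (GGGCGG) or a CCAAT box (CCAAT) on either strand.
Col1a2: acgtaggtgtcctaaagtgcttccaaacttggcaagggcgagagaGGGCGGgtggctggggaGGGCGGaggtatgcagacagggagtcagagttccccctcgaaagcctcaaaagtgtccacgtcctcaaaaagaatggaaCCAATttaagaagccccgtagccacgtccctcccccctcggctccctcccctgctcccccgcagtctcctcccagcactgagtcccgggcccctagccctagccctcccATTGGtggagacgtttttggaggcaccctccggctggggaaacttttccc
Igfbp7: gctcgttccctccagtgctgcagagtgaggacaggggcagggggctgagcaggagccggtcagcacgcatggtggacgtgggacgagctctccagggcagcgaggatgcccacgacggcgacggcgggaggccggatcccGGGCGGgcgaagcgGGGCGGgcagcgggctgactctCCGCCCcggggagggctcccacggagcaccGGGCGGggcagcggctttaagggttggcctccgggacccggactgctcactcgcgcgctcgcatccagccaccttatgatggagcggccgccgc
Sparc: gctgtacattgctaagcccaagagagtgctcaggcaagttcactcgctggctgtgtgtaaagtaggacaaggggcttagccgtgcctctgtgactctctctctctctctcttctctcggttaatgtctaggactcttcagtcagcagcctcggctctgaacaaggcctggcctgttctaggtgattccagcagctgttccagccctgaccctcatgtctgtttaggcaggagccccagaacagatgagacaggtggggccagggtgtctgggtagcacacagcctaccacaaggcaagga
Timp2: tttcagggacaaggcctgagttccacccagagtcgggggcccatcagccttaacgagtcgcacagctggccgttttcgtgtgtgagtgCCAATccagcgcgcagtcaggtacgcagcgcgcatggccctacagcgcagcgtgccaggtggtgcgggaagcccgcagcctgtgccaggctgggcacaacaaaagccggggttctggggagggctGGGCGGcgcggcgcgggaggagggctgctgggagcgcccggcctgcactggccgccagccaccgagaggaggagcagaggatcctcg
Of the 50 genes, 34 had a promoter in the RefSeq table, which covers 27025 symbols. The GC box was found in 21 of the 34 (61.8%), against 35.9% of all promoters in the table. The CCAAT box was found in 14 (41.2%), against 37.9% of all. A TATA box (TATAAA) was found in 4 (11.8%), against 14.2% of all, and an AP-1 site (TGANTCA) in 2 (5.88%), against 7.93% of all. Each motif was searched on both strands and counted by itself, whether or not it overlapped another. The median GC content of these windows was 59.8% in the 34 genes and 52.7% in all promoters. The *Sparc* window above holds neither box, and the RefSeq starts of *Col1a2*, *Sparc* and *Timp2* lie inside the longer GENCODE gene models. A match describes letters in the window and was not read as a binding site.

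The collagens that bear load were led by *Col1a2* and *Col1a1*, the chains of type I collagen. In fibroblast-like cells *Col1a2* stood at 884, 861 and 715 CPM and *Col1a1* at 538, 501 and 499 CPM. *Col3a1*, the type III collagen of pliable tissue, stood at 343, 271 and 378 CPM. The CSD value was the lowest of the 3 for both chains of type I collagen and the highest for *Col3a1*. *Col12a1*, which sits on the surface of collagen fibrils, stood at 312, 264 and 229 CPM. The beaded-filament chains *Col6a1* and *Col6a2* stood at 210, 244 and 175 CPM and at 204, 188 and 148 CPM, each lowest in the CSD library.

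Basement membrane genes were the scarcest role, at a summed 293, 241 and 418 CPM in fibroblast-like cells. *Nid1*, which links laminin to collagen IV, stood at 106, 66.0 and 135 CPM there, and the laminin chain gene *Lama2* at 58.5, 39.6 and 108 CPM. *Lamc1*, the laminin gamma 1 chain, stood at 26.0, 33.0 and 26.97 CPM, which rests on 12, 10 and 2 UMIs. Levels of this size are close to the limit of depth in the CSD library, where 3 UMIs in fibroblast-like cells equal 40.5 CPM.

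Proteoglycans, mineral-binding proteins and IGF-binding proteins gave most of the signal. *Mgp* was the most abundant of the 50 genes in fibroblast-like cells, at 13519, 15914 and 13445 CPM, with the CSD value just below the lower HC value. *Dcn*, which encodes decorin, a proteoglycan that binds collagen fibrils and growth factors, stood at 7464, 5100 and 12083 CPM, highest in the CSD library. Biglycan (*Bgn*), its close relative, stood at 555, 627 and 499 CPM, and lumican (*Lum*) at 574, 251 and 930 CPM. *Igfbp5*, which binds IGFs and the matrix, stood at 2259, 2501 and 1753 CPM. *Igfbp6*, which prefers IGF-II, stood at 1121, 1422 and 1591 CPM. In cells thinned to 500 UMIs, *Mgp* was found in 85.0%, 85.6% and 70.8% of fibroblast-like cells and *Dcn* in 48.8%, 45.6% and 54.2% (68.5%, 68.9% and 83.3% for *Dcn* before thinning).

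Summed by role in fibroblast-like cells, the matricellular genes stood at 16506, 18913 and 16128 CPM and the proteoglycans at 9192, 6641 and 14213 CPM. IGF-binding proteins summed to 5316, 5664 and 5933 CPM, proteases and inhibitors to 2146, 2171 and 2994 CPM, and fibrillar collagens to 1823, 1699 and 1713 CPM. The proteoglycan sum, most of it *Dcn*, was highest in the CSD pool.

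Microfibril, cross-linking and inhibitor genes covered a wide range of levels in fibroblast-like cells. *Mfap4*, a microfibril-associated glycoprotein, stood at 865, 884 and 1146 CPM and *Mfap5*, another, at 605, 531 and 445 CPM. *Efemp1* stood at 479, 488 and 472 CPM, a range of less than 20 CPM. *Pcolce*, which speeds the removal of the procollagen C-terminus, stood at 676, 640.0 and 863 CPM, and the cross-linking enzyme gene *Loxl1* at 115, 106 and 80.9 CPM. *Lox*, the founding lysyl oxidase, was near the detection limit at 17.3, 29.7 and 13.5 CPM. *Serping1*, which encodes the C1 inhibitor of the complement and contact systems, stood at 522, 666 and 607 CPM.

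Endothelial-like cells held a partly different set of the genes, on few cells. There were 13, 19 and 4 of these cells, and 10 of 10 endothelial markers were detected in the cluster. *Igfbp7*, which is deposited in vessel walls, stood at 1139, 4784 and 1847 CPM. *Timp3*, an inhibitor that stays bound to the matrix, stood at 390, 1620 and 616 CPM, and *Sparcl1*, a matricellular relative of SPARC, at 260, 678 and 462 CPM. *Eln*, which encodes elastin and is named here after its values were seen, stood at 163, 565 and 154 CPM. HC replicate 2 was the highest for each of these genes, and the CSD values rest on 12, 4, 3 and 1 UMIs. The same cells held no UMI of *Col1a1*, *Col3a1* or *Lum* in any library. They did hold *Mgp*, at 3416, 1281 and 770 CPM against 1686, 1353 and 572 CPM in free RNA. *Sparc* stood at 651, 1770 and 462 CPM there, against 412, 342 and 195 CPM in free RNA.

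*Sparc* was the member that met the rule for a level outside stromal cells, at least 3 times free RNA in each library. It encodes a matricellular protein that binds collagen and calcium and is known in microglia as well as fibroblasts. Microglia-like cells held 2680, 3014 and 2648 CPM of *Sparc*, which was 6.50, 8.81 and 13.6 times free RNA. Fibroblast-like cells held 2892, 2936 and 2454 CPM, so the cell types overlapped in level. In thinned cells a *Sparc* UMI was seen in 71.8%, 67.4% and 65.2% of microglia-like cells but in 5.09%, 6.72% and 0.957% of T cell-like cells, with median depths of 2078, 2286.5 and 1721 UMIs in the former and 2202.5, 2524 and 2010 UMIs in the latter. *Sparc* alone made up 66.2%, 71.5% and 80.3% of the UMIs that microglia-like cells held of the 50 genes.

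*Timp2* was above its free RNA level in border macrophage-like and microglia-like cells. Border macrophage-like cells held 430, 395 and 344 CPM and microglia-like cells 527, 424 and 486 CPM, against 247, 192 and 182 CPM in free RNA. These levels were 1.74 to 2.05 times free RNA in the former and 2.14 to 2.66 times in the latter, under the 3-fold rule. After thinning, 11.4%, 11.9% and 12.9% of neutrophil-like cells held a *Timp2* UMI. The share of B cell-like cells that did was 2.10%, 3.37% and 1.80%, at median depths of 1655, 1689.5 and 1423.5 UMIs against 2137, 1751 and 2235.5 UMIs in neutrophil-like cells. The *Timp2* level of neutrophil-like cells, 185, 219.8 and 215 CPM, was about that of free RNA. *Mgp* stood at 337, 358 and 35.3 CPM in these cells, against 1686, 1353 and 572 CPM in free RNA. Whether neutrophil-like cells express *Timp2* was not tested. Before thinning the share of neutrophil-like cells with a *Timp2* UMI was 40.7%, 40.1% and 44.9%. *Mgp* was seen after thinning in 15.5%, 15.1% and 1.44% of neutrophil-like cells. Among T cell-like cells its share was 13.4%, 17.2% and 0.478%. The *Mgp* level in these leukocytes lay below that of free RNA and was not read as expression.

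**Figure D3:**
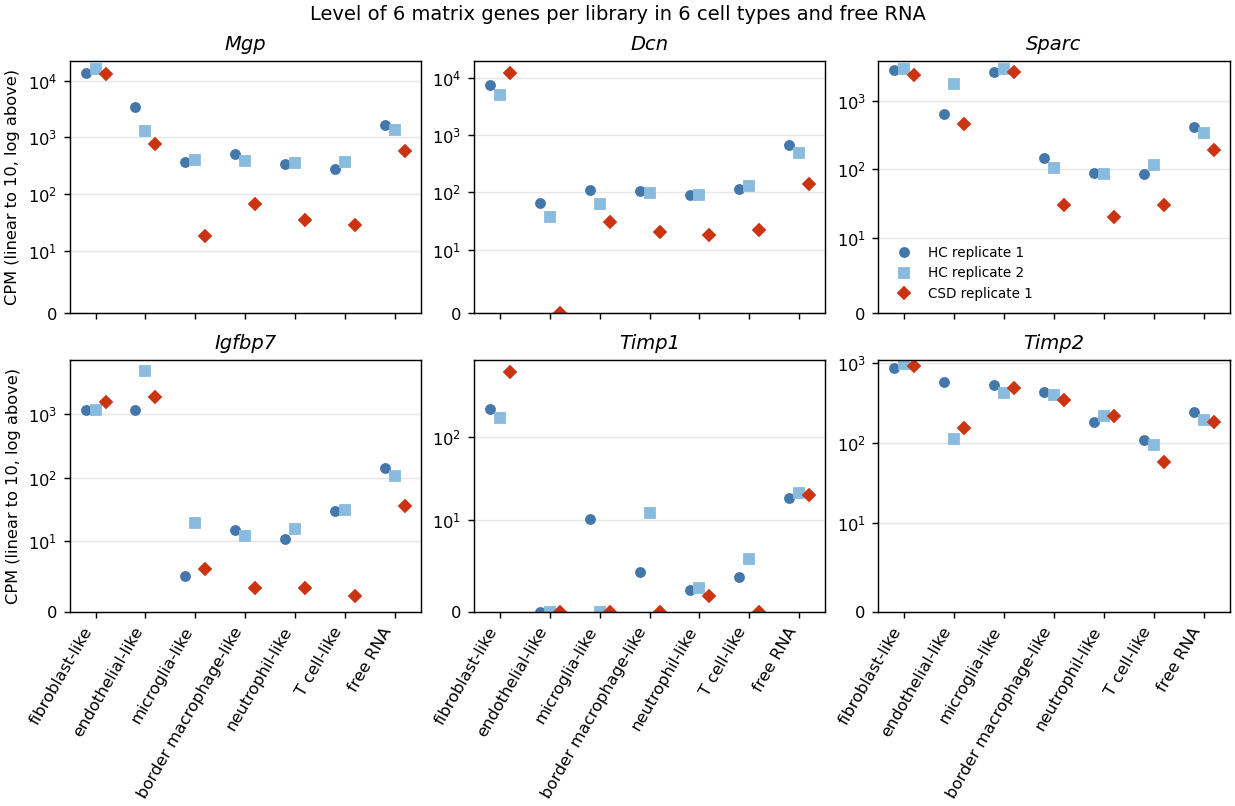
Level of 6 matrix genes (CPM, linear up to 10 and logarithmic above) in 6 cell types and in free RNA, with 1 symbol per library and no error bars. *Mgp* and *Dcn* fall off outside fibroblast-like cells and are lower there in the CSD library, *Sparc* is as high in microglia-like as in fibroblast-like cells, and *Timp2* shows 182 to 247 CPM in free RNA with no wide gap between groups.

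The comparison of CSD with HC asked whether matrix transcripts differed after stress, and it was made in free RNA, in all kept barcodes and within cell types. In free RNA the summed level of the 50 genes was 4652 and 3569 CPM in HC (mean 4111, SD 766, n = 2) and 1546 CPM in CSD, 0.376 times the HC mean. In sums like this, fewer cells of a type and less RNA per cell cannot be told apart. *Dcn* stood at 672, 488 and 139 CPM in free RNA and *Mgp* at 1686, 1353 and 572 CPM, with the CSD library below both HC libraries for each. Their log2 fold changes were -1.95 (SE 0.32) for *Dcn* and -1.30 (SE 0.27) for *Mgp*, each with an adjusted p of 0.708 by edgeR's quasi-likelihood test. None of the 31 genes that passed the filter of 30 UMIs was called at an adjusted p of 0.05, as was none of the 7430 genes tested (0%). With no adjustment 18 of the 31 had a p under 0.05, against 5.03% of all genes tested, and DESeq2 also called 0, with 12 of the 31 at p under 0.05 before adjustment. For 27 of the 31 the CSD library lay below both HC libraries, against 36.7% of all genes tested, and for 1 it lay above both, against 35.1%. Several of the 31, such as *Lum* with 64, 66 and 6 UMIs, passed the filter only through the HC libraries. These counts thus describe them and carry no weight for the others. The median log2 fold change was -1.62 against -0.02 over all genes. Leaving out HC replicate 1 gave a median of -1.29, and leaving out HC replicate 2 gave -1.88. *Col6a2* had 18, 37 and 0 UMIs and was at least 3.53-fold lower in CSD than in HC, taking 3 counts in the CSD library as the floor. *Fmod*, the proteoglycan fibromodulin, had 22, 24 and 0 UMIs and was at least 2.95-fold lower by the same floor, a bound of 5.27-fold against the first HC pool alone and 2.10-fold against the second, and is named here for its zero. *Timp2* and *Timp3* showed little difference, with log2 fold changes of -0.16 (95% interval -0.82 to 0.51) and 0.08 (95% interval -0.94 to 1.10).

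In all kept barcodes most of the matrix genes tested fell in the CSD library. Summed over the 50 genes the level was 3306, 3459 and 721 CPM. *Mgp* had 9843, 6800 and 1396 UMIs, a log2 fold change of -2.76 (SE 0.20, adjusted p = 0.0025, edgeR). *Igfbp5* had 1373, 940 and 176 UMIs and a log2 fold change of -2.90 (SE 0.19, adjusted p = 0.0017, edgeR), with the CSD count far below both HC counts. Of the 44 genes tested 27 were called lower and 0 higher by edgeR, against 3.08% of all genes called in either direction, 1.98% called lower and 1.1% called higher. DESeq2 called 23 lower, against 1.85% of all genes called in either direction. The CSD library lay below both HC libraries for 43 of the 44, against 36.9% of all genes, and the median log2 fold change was -2.28 against -0.02 over all genes (-2.23 without HC replicate 2). Several of the 44 passed the filter only through the HC libraries, such as *Fmod* with 98, 66 and 15 UMIs. The counts describe the 44 and do not stand for the 6 that were too rare to test.

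By role, calls of lower level in all kept barcodes numbered 3 of 5 fibrillar collagens, 3 of 3 other interstitial collagens, 5 of 6 proteoglycans, 6 of 8 elastic fibre genes, 2 of 2 processing genes, 2 of 3 matricellular genes, 3 of 5 IGF-binding proteins and 3 of 6 proteases and inhibitors. Over all genes tested 1.98% were called lower. None of the 6 basement membrane genes tested was called by edgeR, although 5 of them had an unadjusted p under 0.05, against 15.4% of all genes. *Col1a2* fell by 2.84 on the log2 scale (adjusted p = 0.00264, edgeR) and *Dcn* fell by 1.61 (adjusted p = 0.00944, edgeR). *Timp2* had the log2 fold change nearest 0 of the 9 genes with over 1000 UMIs, at 1970, 1029 and 1478 UMIs and a log2 fold change of -0.16 (95% interval -0.55 to 0.23, adjusted p = 0.747, edgeR). Shares of cells moved with these sums. Fibroblast-like cells were 4.98% and 5.37% of typed cells in HC and 0.918% in CSD, and neutrophil-like cells 32.9% and 36.0% in HC and 50.6% in CSD. With fibroblast-like cells and marked doublets left out, a setting added after the data were seen, 33 genes were tested and 10 were called lower, against 0.432% of all genes called in that setting, with a median log2 fold change of -2.61 against -0.02 over all genes.

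**Figure D4:**
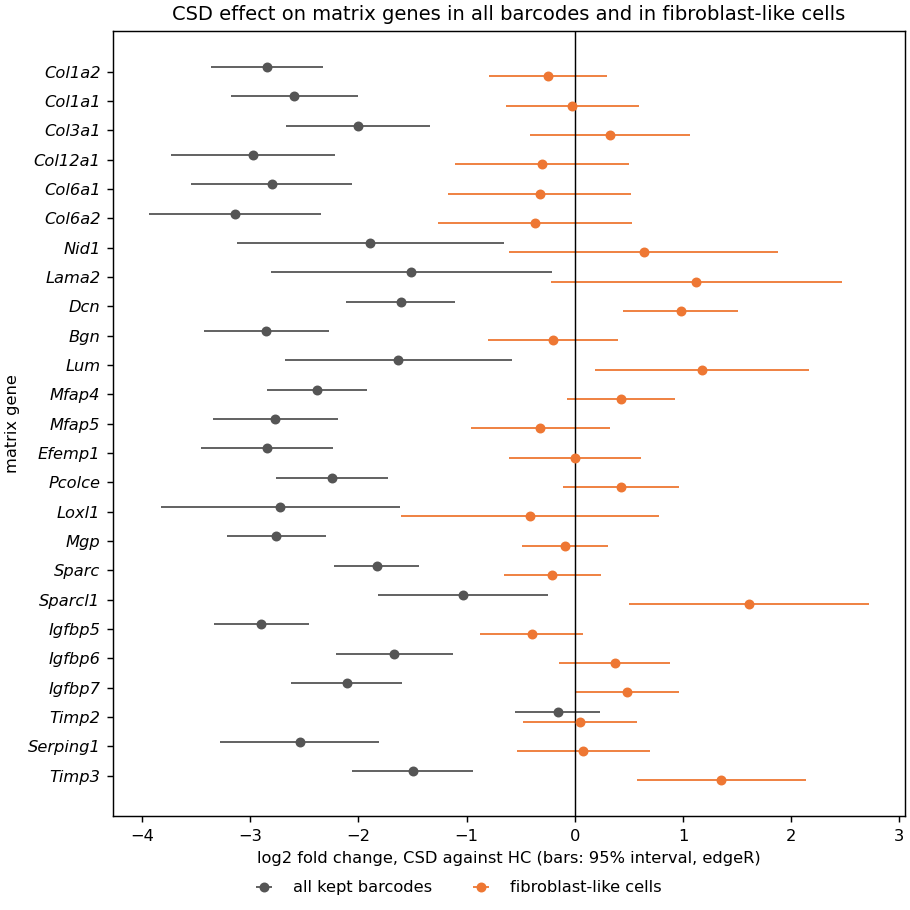
Log2 fold change of CSD against HC (edgeR, bars give the 95% interval) for the named matrix genes tested both in all kept barcodes (grey) and in fibroblast-like cells (orange). Grey points lie at or below -1 except *Timp2* at -0.16, while orange points scatter around 0 and the intervals of *Dcn*, *Lum*, *Sparcl1*, *Igfbp7* and *Timp3* lie above it.

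Within fibroblast-like cells the matrix programme showed no called change. The summed level of the 50 genes in CSD was 1.15 times the HC mean, and 1.01 times it with *Dcn* left out, at 31815, 34250.5 and 33254 CPM. By edgeR 0 of the 38 genes tested were called, against 0.105% of all genes, and 7 of the 38 had a p under 0.05 before adjustment, against 7.77% of all genes. DESeq2 called 0 of the 38 and found 3 at that unadjusted level. The 38 had a median log2 fold change of 0.06, against -0.03 over all genes, and 0.07 without HC replicate 2. The CSD library lay above both HC libraries for 19 of the 38 genes and below both for 14, against 38.6% and 41.9% of all genes.

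Before adjustment 7 genes had a p under 0.05 in fibroblast-like cells, namely *Timp1*, *Dcn*, *Timp3*, *Sparcl1*, *Lum*, *Igfbp4* and *Igfbp7*, of which *Timp1* and *Igfbp4* are named after their values were seen. *Timp1*, the inducible inhibitor of the family, stood at 215, 168 and 607 CPM, a log2 fold change of 1.68 (95% interval 1.01 to 2.36, adjusted p = 0.131, edgeR). *Timp3* stood at 377, 228 and 769 CPM, a log2 fold change of 1.35 (95% interval 0.58 to 2.13, adjusted p = 0.472, edgeR). *Dcn* had a log2 fold change of 0.98 (95% interval 0.44 to 1.51, adjusted p = 0.466, edgeR), which was 0.71 without HC replicate 2. For these 3 genes the CSD library lay above both HC libraries. With relative log expression in place of TMM scaling 3 of the 38 genes were called higher, against 0.499% of all genes called, *Dcn* (adjusted p = 0.00414, edgeR) and *Timp3* (adjusted p = 0.0155, edgeR) among them. *Sparcl1* stood at 86.7, 52.8 and 216 CPM (log2 fold change 1.61, adjusted p = 0.596, edgeR). At the other end *Mgp* had a log2 fold change of -0.09 (95% interval -0.49 to 0.31), *Col1a1* of -0.02 (95% interval -0.63 to 0.59) and *Efemp1* of 0.00 (95% interval -0.61 to 0.62). The cells these values come from also differed in other markers: summed mural markers stood at 293, 244 and 1025 CPM with 9 of 10 detected, and the 16 fibroblast markers at 5088, 3101 and 14699 CPM, with *Apod* making up most of the CSD sum, and without it the other 15 stood at 2120.2, 1933 and 2333 CPM. Their part in the differences was not tested.

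In neutrophil-like cells most of the matrix genes tested fell in the CSD library. Their summed level was 986, 1034 and 351 CPM, below free RNA in every library. Of the 17 genes that passed the filter, 13 were called lower by edgeR against 1.68% of all genes, 0 were called higher against 0.429%, and DESeq2 called 5. In 16 of the 17 a p under 0.05 was reached before adjustment, against 9.1% of all genes. In 16 the CSD library lay below both HC libraries, against 33.2% of all genes, and in 1 above both, against 33.3%. Several of the 17, such as *Col1a2* with 25, 8 and 3 UMIs, passed the filter only through the HC libraries, so these counts describe them and carry no weight for the others. *Mgp* had 870, 556 and 146 UMIs and a log2 fold change of -3.11 (SE 0.28, adjusted p = 7.15e-25, edgeR). *Dcn* had 229, 142 and 74 UMIs and a log2 fold change of -2.14 (SE 0.27, adjusted p = 2.00e-12, edgeR). Here, and for these cells against free RNA below, each gene's spread was taken from all genes together. Such p-values do not measure how *Mgp* or *Dcn* varied between HC pools. *Timp2* went the other way in sign, at 183, 208 and 236 scaled CPM with a log2 fold change of 0.28 (95% interval -0.18 to 0.73, adjusted p = 0.859, edgeR). Among the UMIs of the 50 genes in these cells, *Mgp* made up 34.1%, 34.6% and 10.1% and *Timp2* 18.8%, 21.2% and 61.2%. In free RNA the *Mgp* share was 36.2%, 37.9% and 37.0%.

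Border macrophage-like cells gave no call by edgeR. They numbered 308, 57 and 124 cells, their summed level was 1740, 1348 and 614 CPM, and 9 of the 50 genes were tested. By edgeR 0 of the 9 and 0% of the 4403 genes were called, 6 of the 9 had a p under 0.05 before adjustment against 3.13% of all genes, and DESeq2 called 1. The CSD library lay below both HC libraries for 8 of the 9, against 31.9% of all genes, and above both for 1, against 32.5%. Some of the 9, such as *Mfap4* with 54, 1 and 1 UMIs, passed the filter only through the first HC library. These counts thus describe them and carry no weight for the others. The median log2 fold change was -2.06, and -0.79 without HC replicate 1. *Timp2* had a log2 fold change of -0.22 (95% interval -0.93 to 0.49) and *Mgp* of -2.70 (95% interval -3.66 to -1.73, adjusted p = 1.00, edgeR).

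The CSD effect was then compared between cells and the free RNA of the same libraries, with library as a block. This leaves 1 residual degree of freedom, as does each fit of CSD against HC above. In simulated counts only genes of higher counts were changed. There this test recovered 21% of 4-fold changes for fibroblast-like cells and 66.5% for neutrophil-like cells. Few calls here thus do not show that few genes differ. In fibroblast-like cells against free RNA, 1 of 42 genes tested was called, against 0.0231% of all genes, and 21 had a p under 0.05 before adjustment, against 5.84%. The called gene was *Dcn*, whose effect was higher in the cells by 2.67 on the log2 scale (SE 0.25, 95% interval 2.11 to 3.23, adjusted p = 0.010, edgeR). The median over all genes was -0.37 in this comparison, and -0.24 under relative log expression. *Mgp* differed by 0.93 (adjusted p = 0.748, edgeR) and *Timp2* by -0.08 (adjusted p = 0.952, edgeR). In neutrophil-like cells against free RNA, 1 of 31 genes was called, against 0.0521% of all genes called (0.0417% lower and 0.0104% higher), and 0 by DESeq2. Before adjustment 5 of the 31 had a p under 0.05, against 5.63% of all genes. The called gene was *Mgp*, whose effect was -1.82 in the cells relative to free RNA (SE 0.29, 95% interval -2.40 to -1.25, adjusted p = 2.07e-06, edgeR; adjusted p = 0.470, DESeq2). *Igfbp5* differed by -2.15 (adjusted p = 0.0642, edgeR), *Sparc* by -1.12 (adjusted p = 0.114, edgeR) and *Dcn* by -0.21 (adjusted p = 0.990, edgeR).

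A further list of 77 other matrix genes, none among the 50, was fitted in the same way. In all kept barcodes 60 of the 77 were tested, 7 were called lower and 2 higher by edgeR, against 1.98% and 1.1% of all genes. For 45 of the 60 the CSD library lay below both HC libraries, against 36.9% of all genes, and the median log2 fold change was -0.89 against -0.02. Some of the 60, such as *Timp4* with 45, 29 and 5 UMIs, passed the filter only through the HC libraries. These counts thus describe the genes tested and carry no weight for the others. The 7 that fell were *P4ha2*, *Serpinh1*, *Smoc2*, *Aspn*, *Aebp1*, *Ctsk* and *Timp4*. Among them *Serpinh1*, a chaperone of procollagen, had 331, 269 and 51 UMIs (log2 fold change -2.76, SE 0.29, adjusted p = 0.00414, edgeR), and *Smoc2*, a matricellular gene, had 186, 135 and 21 UMIs (log2 fold change -3.11, SE 0.30, adjusted p = 0.00334, edgeR). The 2 that rose were *Vcan*, the large proteoglycan versican, with 29, 25 and 145 UMIs (log2 fold change 2.23, SE 0.30, adjusted p = 0.00944, edgeR), and *Mmp8*, the neutrophil collagenase, with 3665, 3018 and 7846 UMIs (log2 fold change 1.02, SE 0.20, adjusted p = 0.0388, edgeR). These 9 genes, *Mmp8* excepted, are named after their values were seen. Within neutrophil-like cells *Mmp8* had a log2 fold change of 0.29 (95% interval -0.15 to 0.74), and these cells were a larger share of the CSD library. *Vcan* was among the markers that named monocyte-like cells, which gave 12.7%, 15.5% and 17.6% of the UMIs of typed cells. The part of that share in the *Vcan* counts was not tested. In fibroblast-like cells 0 of 37 tested were called by edgeR, with 2 at an unadjusted p under 0.05 against 7.77% of all genes. In free RNA 0 of 27 were called, with 5 at that level against 5.03%. *Fn1*, which encodes fibronectin, stood at 73.5, 68.1 and 90.4 CPM in all kept barcodes. *Ppib*, a folding catalyst of the collagen pathway, stood at 245, 266 and 222 CPM, and *Cd44*, a receptor for hyaluronan, at 80.3, 85.6 and 94.5 CPM.

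Several of the genes lie next to each other in the genome, on GRCm38 by GENCODE vM21. *Dcn* lies at chr10:97479609-97518143 and *Lum* at chr10:97565128-97572703 on the same strand, 46984 bases apart, and their log2 fold changes were -1.61 and -1.63 in all kept barcodes and 0.98 and 1.17 in fibroblast-like cells. *Col6a2* and *Col6a1* lie 85161 bases apart on chromosome 10, with -3.14 and -2.80 in all kept barcodes and -0.37 and -0.32 in fibroblast-like cells. *Igfbp2* and *Igfbp5* lie 5457 bases apart on opposite strands of chromosome 1, with -2.09 and -2.90 in all kept barcodes and, with opposite signs, 0.53 and -0.40 in fibroblast-like cells. None of these pairs was tested for likeness. *Mgp* lies at chr6:136872435-136875823 on the minus strand, and *Timp2* at chr11:118301069-118355740 on the minus strand.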

How the data were processed

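UMI counts per gene and barcode were deposited by the authors for 3 libraries; per the labels and the submitters' processing notes they were made with Cell Ranger version 2 on mm10, unfiltered and not normalized. Barcodes with at least 500 UMIs, 174 to 4548 genes and under 8.3% mitochondrial UMIs were kept; barcodes of at most 100 UMIs gave free RNA. Totals were 9891861, 8814690 and 10206236 UMIs. Doublets were marked by Scrublet's automatic threshold in HC (47 and 25 barcodes, 1.81% and 1.47%) but by the top scores in CSD (141, 5.12%), where that threshold marked 4; they were removed, libraries aligned by mutual nearest neighbours, and cells clustered (scanpy 1.11.5, Leiden resolution 1) without matrix genes; types were named from markers. Counts were summed per library and cell type, since cells of a pool are not replicates, and genes with at least 30 UMIs were tested (edgeR 4.0.16 quasi-likelihood, TMM, Benjamini-Hochberg over all genes tested, threshold 0.05; two-sided). Alternatives were DESeq2 1.42.0, other scalings, filters, depths and clusterings, and each HC replicate left out. The tests were checked on simulated counts with 200 genes changed 4-fold. The changed genes had at least 100 UMIs, and all genes were given the same spread. Recovery among genes of 30 to 100 UMIs was thus not measured. They recovered 21% of these for fibroblast-like cells against free RNA, 66.5% for neutrophil-like cells against free RNA and 71% in free RNA. The other fits recovered 76% to 97.5%.

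The named genes were, in each role, the 3 with most UMIs, genes at least 3 times free RNA in each library (20 UMIs or more) in a cell type other than fibroblast-, arachnoid-, endothelial-, mural- or osteoblast-like, and those called in fibroblast-like cells or in a difference of effects; of the 77 other matrix genes, the 2 with most free RNA UMIs per group. The 50 genes and the lists were chosen with earlier results of these data known. Intervals of shares (exact, 95%) and levels cover counting error only.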

Additional observations from a re-analysis of the deposited data

Results flagged for a closer look

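The effect of CSD on *Dcn* differed between fibroblast-like cells and the free RNA of the same libraries, by 2.668 on the log2 scale and higher in the cells, in a test of the difference itself by edgeR (adjusted p = 0.010). The CSD library was above both HC libraries in the cells (7464 and 5100 CPM in HC, 12083 CPM in CSD) and below both in free RNA (672 and 488 CPM in HC, 139 CPM in CSD).

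The effect of CSD on *Mgp* differed between neutrophil-like cells and free RNA by -1.824 on the log2 scale (adjusted p = 2.07e-06, edgeR; adjusted p = 0.470, DESeq2). The CSD library was below both HC libraries in each. No cause was tested for either gene.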

How the results depend on the processing

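No paired analysis was made, because the labels name no pairing between an HC pool and the CSD pool. Of 846 values of named genes under another setting 756 kept their sign and, where a test was run, their side of the threshold. Of the 276 values of calls, 276 kept their sign and 21 were no longer past the threshold. Settings that left out an HC pool had no test, so there only the sign could be compared. The count of genes called moved in these cases, given with the genes tested and the share of all genes called, and the cause was not tested. Free RNA gave 12 of 50 (0.452%) with no filter and 8 of 27 (0.426%) with at most 50 UMIs. All kept barcodes gave 10 of 33 (0.432%) without fibroblast-like cells and marked doublets together. Fibroblast-like cells gave 3 of 38 (0.499%) with relative log expression, 1 of 50 (0.245%) with no filter, 2 of 34 (0.388%) with genes in over 15% of cells, 1 of 37 (0.231%) with at least 1000 UMIs and 1 of 39 (0.251%) with no neighbour correction. Neutrophil-like cells gave 5 of 17 (0.26%) by DESeq2 and 1 of 2 (0.0746%) with genes in over 15% of cells. Border macrophage-like cells gave 1 of 9 (0.0227%) by DESeq2, 1 of 9 (0.114%) with relative log expression, 1 of 47 (0.0903%) with no filter, 2 of 5 (0.208%) with genes in over 15% of cells, 1 of 8 (0.115%) with at least 1000 UMIs and 3 of 9 (0.311%) with doublets kept. Fibroblast-like cells against free RNA gave 5 of 42 (0.138%) with relative log expression, 5 of 50 (0.164%) with no filter, 9 of 41 (0.72%) with at most 50 UMIs, 6 of 42 (0.449%) with at least 1000 UMIs, 7 of 42 (0.492%) with doublets kept and 5 of 42 (0.183%) with no neighbour correction. Neutrophil-like cells against free RNA gave 0 of 31 (0%) by DESeq2, 2 of 31 (0.119%) with no neighbour correction and 2 of 31 (0.0979%) at Leiden resolution 2. The summed level in fibroblast-like cells, CSD over the HC mean, was 1.17 with at least 1000 UMIs, 1.20 with doublets kept and 1.08 with no correction, and in neutrophil-like cells 0.374 with no correction and 0.375 at resolution 2.

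Signs reversed among genes that were not called. Leaving out each HC pool in turn moved the log2 fold change in free RNA over -0.494 to 0.366 for *Col3a1*, -0.330 to 0.0259 for *Timp2* and -0.0308 to 0.161 for *Timp3*, which was -0.169 with at most 50 UMIs. In fibroblast-like cells the same ranges were -0.0916 to 0.0596 for *Col1a1*, -0.00578 to 0.0181 for *Efemp1*, -0.176 to 0.00786 for *Mgp* and -0.0677 to 0.231 for *Serping1*, and -0.423 to 0.00836 for *Dcn* in neutrophil-like cells against free RNA. *Col1a1* was 0.0562 with at least 1000 UMIs and 0.0530 with doublets kept. *Efemp1* was -0.259 with no filter, -0.115 with at least 1000 UMIs and -0.0947 with no correction. *Serping1* was -0.183 with no filter and -0.0404 with no correction, *Timp2* -0.214 with no filter, and *Timp2* 0.0513 in all kept barcodes without fibroblast-like cells and marked doublets together.

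With 24 fibroblast-like and 4 endothelial-like cells in the CSD library, changes in scarce genes could not be detected there.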
